A study of Mus musculus with 30 samples.

Results

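The genes described here encode the respiratory chain: the subunits of complexes I to IV and of ATP synthase, complex V, in the nuclear and the mitochondrial genome. They were chosen by symbol alone: the Nduf subunits of complex I with Ndufab1, Sdha to Sdhd, 8 Uqcr genes, the named Cox subunits from Cox4i1 to Cox8b, every gene starting with Atp5 whose name does not mark it as a pseudogene, and the protein-coding mt-Nd, mt-Co, mt-Cytb and mt-Atp genes. Of 55426 genes counted, 95 met the rule, 82 of them nuclear and 13 mitochondrial. Complex I had 36 nuclear and 7 mitochondrial members, complex II 4 nuclear members, complex III 8 and 1, complex IV 16 and 3, and complex V 18 and 2. Ndufa4 was counted in complex IV, where its protein is now placed. Of the 95, 94 had enough counts to be tested in both tissues; the exception was a second row named Atp5o, with 2 counts over all samples.

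Complexes I and II pass electrons from NADH and succinate to ubiquinone, complex III passes them to cytochrome c, and complex IV passes them to oxygen. Complexes I, III and IV pump protons across the inner mitochondrial membrane, and ATP synthase uses the return of protons to make ATP. Complex II is encoded in the nucleus alone, while the others combine nuclear subunits with core subunits made inside the mitochondrion. Skeletal muscle fibres are rich in mitochondria and use muscle forms of some complex IV subunits, such as Cox6a2, Cox7a1 and Cox8b, in place of the widespread Cox6a1, Cox7a2 and Cox8a.

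Sequenced RNA came from Achilles tendon and from calcaneus, the heel bone (called bone below), of mice whose genotype is given as Acta1,Ai32 in every group, the naive one included. Acta1 is the skeletal muscle actin gene and Ai32 is a channelrhodopsin allele, which makes cells that express it excitable by light; the labels name no Cre line, age or number of animals. Each tissue had 5 groups of 3 samples: naive at day 0, unstimulated at 5 and at 12 days, and stimulated at 5 and at 12 days, where stimulation stands for muscle loading driven by light. The titles call the stimulated samples stimulated controls. The labels do not tie the samples of a group to separate animals. The p-values therefore reflect the spread between samples alone, and that spread may be technical.

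Tendon samples held 24488997 to 44566322 counts (median 30334424) and bone samples 19255983 to 35035536 (median 23378911). Replicates 1 and 2 of the unstimulated bone group at 5 days lay far closer to each other than the other 29 pairs of replicates (a chi-square per gene of 6.28 against 18.8 to 208) and were counted as 1 library, leaving 14 bone libraries beside 15 of tendon; whether they are 1 library is not settled. The tendon samples held much muscle RNA: 30 muscle fibre genes took 16.9 to 27.7% of tendon counts and 0.0756 to 5.66% of bone counts, with all 30 detected in both tissues. Tendon fibroblast genes took 0.408 to 5.19% in tendon and 5.98 to 11.3% in bone, osteoblast and osteocyte genes 0.128 to 2.19% and 2.71 to 5.72%, and erythroid genes 0.0199 to 0.0459% and 0.385 to 5.09%. The tendon fibroblast list includes the matrix genes Col1a1, Col1a2, Col3a1 and Dcn, and Col1a1 is also on the osteoblast and osteocyte list. Its share is therefore not a measure of tendon fibroblasts alone, and the shares and calls of these lists are not independent. In such bulk samples, fewer cells of a type and less RNA per cell cannot be told apart.

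Respiratory chain transcripts made up 7.48 to 11.6% of all counts in tendon and 2.47 to 3.94% in bone. The 13 mitochondrial genes supplied most of them. In naive tendon they took 7.72 ± 0.481% (SD, n = 3) and the nuclear genes 2.0 ± 0.207%. In naive bone the mitochondrial genes took 2.0 ± 0.284% and the nuclear genes 0.719 ± 0.0948%. Across all libraries the mitochondrial share ran from 5.67 to 9.42% in tendon and from 1.82 to 3.13% in bone, and the nuclear share from 1.77 to 2.49% and from 0.624 to 0.969%, so that neither share overlapped between the tissues.

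Among the tendon groups the ranges of both shares overlapped. The mitochondrial share was 7.22 ± 0.708% in the unstimulated and 7.76 ± 1.02% in the stimulated group at 5 days. At 12 days it was 7.67 ± 0.485% without and 7.48 ± 1.88% with stimulation, the last group holding both the highest and the lowest tendon value. In bone the mean mitochondrial share was 2.47% in the 2 unstimulated libraries at 5 days, 2.62 ± 0.451% with stimulation at 5 days, 2.62 ± 0.206% unstimulated and 2.78 ± 0.446% stimulated at 12 days. Each of these exceeded the naive bone mean, and 1 naive library, at 2.32%, reached into the ranges of both stimulated groups.

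**Figure D1:**
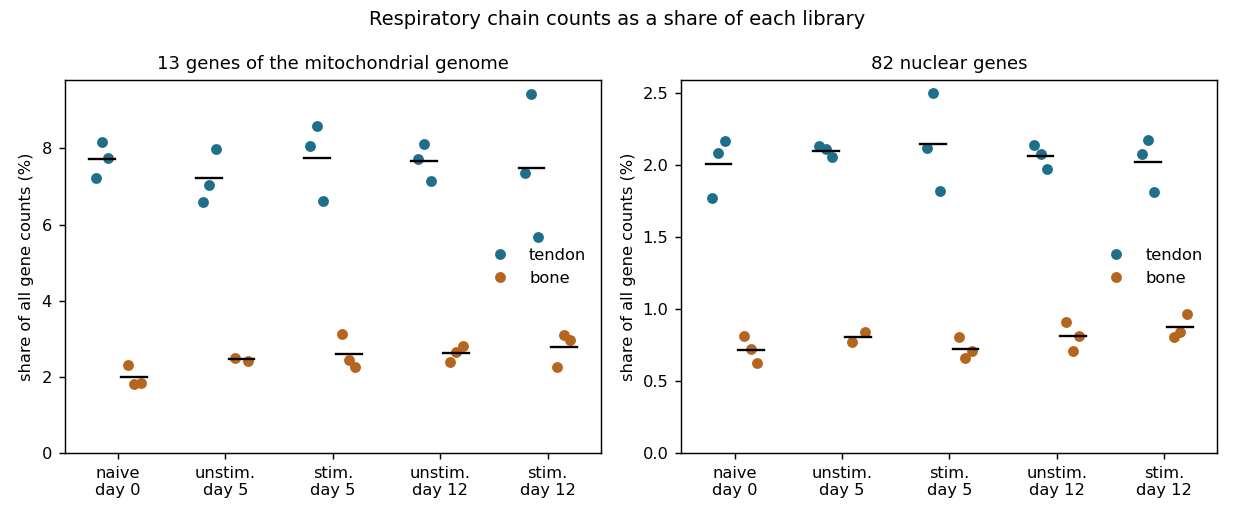
Share of all gene counts (%, y axis from 0) taken by the 13 mitochondrial genes (left) and the 82 nuclear genes (right), by group; each point is a library (3 per group, 2 in unstimulated bone at day 5) and the bar is the group mean. Every tendon point lies above every bone point, and the stimulated tendon libraries at day 12 spread most for the mitochondrial genes.

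Levels of different genes were compared as CPM (a gene's count scaled to a common library size) per kilobase of exon, on a scale shared by both tissues. The 13 mitochondrial genes had a median of 5029 in naive tendon and 1032 in naive bone, and the 81 tested nuclear genes 129 and 32.6. By the counts assigned to the members themselves the highest was mt-Co1, the catalytic subunit of complex IV, at 22204 in naive tendon and 3733 in naive bone. The order among mitochondrial members is uncertain, since copies of several of them on chromosome 1, described last, took over 50% of the counts of the pair and are not included. By complex, the nuclear medians in naive tendon and bone were 85.6 and 26.8 for complex I, 159 and 34.6 for II, 190 and 47.9 for III, 164 and 41.0 for IV, and 129 and 37.0 for V. The highest nuclear level in tendon belonged to Atp5a1, the alpha subunit of ATP synthase, at 703, and in bone to Cox4i1, a regulatory complex IV subunit, at 154.1. The lowest was Cox6b2, a complex IV subunit known from testis, at 0.752 in tendon and, in bone, Ndufb2, an accessory subunit of complex I, at 2.92; the exon length used covers all annotated transcripts and can exceed that of the main one.

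Naive tendon and naive bone differed in nearly every member. On the scale shared by both tissues, 90 of 94 members were higher in tendon and 3 lower (edgeR, adjusted p under 0.05), where 33.3% of all 19845 genes tested were called higher, 35.0% lower and 68.4% in either direction. The groups of 3 did not overlap for the same counts of 90 and 3, against 35.7 and 38.5% of all genes. The median log2 fold change was 2.47 for mitochondrial and 1.90 for nuclear members, beside -0.06 for all genes, and by complex 1.82 (I), 2.25 (II), 2.08 (III), 1.88 (IV) and 1.90 (V) for the nuclear ones. With library totals in place of TMM scaling the median of all genes moved to -0.60, and the nuclear median stood 1.96 above it under both.

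Ndufs1, the largest iron-sulphur subunit of complex I, had 395, 435 and 428 CPM in naive tendon and 70.2, 58.4 and 50.5 in naive bone. Its log2 fold change was 2.81 ± 0.17 (SE, edgeR adjusted p = 9.06e-12), the largest among nuclear complex I members. Sdha, the flavoprotein of complex II, reached 2.45 and Uqcrfs1, the Rieske iron-sulphur protein of complex III, 2.67. Among the mitochondrial genes mt-Nd5 was highest at 2.95 ± 0.24, and mt-Co1 had 32493, 35639 and 34783 CPM in tendon against 6721, 5240 and 5344 in bone. The smallest called increases were those of Atp5g2, a c subunit of ATP synthase, at 1.04, and Ndufa1 at 1.10.

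Within complex IV the 3 muscle forms were higher in tendon, while their widespread partners differed in direction. Cox6a2, the muscle form, had 323, 380 and 393 CPM in naive tendon and 39.3, 18.97 and 0.502 in naive bone, and its log2 fold change was 4.21 ± 0.78. Cox6a1, the widespread form of that subunit, had 40.2, 40.2 and 47.4 CPM in tendon and 80.2, 87.1 and 98.1 in bone, and was lower in tendon by a log2 fold change of -1.05 ± 0.15 (edgeR adjusted p = 1.39e-06). The 2 forms thus differed in opposite directions, and neither overlapped between the tissues. Cox7a1 and Cox8b, the other muscle forms, had log2 fold changes of 4.25 ± 0.61 and 3.71 ± 0.62. These values moved with single libraries: without naive bone replicate 1 they were 5.23 for Cox7a1, 4.75 for Cox8b and 5.23 for Cox6a2, and without naive bone replicate 3 they were 3.72, 3.19 and 3.64. Cox7a2, the widespread partner of Cox7a1, was also higher in tendon (1.21 ± 0.14, edgeR adjusted p = 8.8e-08), with 97.7, 113 and 114 CPM there against 47.9, 45.6 and 46.7 in bone. Cox8a, the widespread partner of Cox8b, was lower in tendon at -0.66 ± 0.12 (edgeR adjusted p = 5.15e-05), with 47.3, 49.8 and 53.9 CPM there against 73.0, 79.2 and 86.2 in bone.

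Cox6b2 was lower in tendon than in bone (0.82, 0.75 and 0.93 against 5.22, 7.59 and 7.30 CPM), with a log2 fold change of -3.0 ± 0.26 (edgeR adjusted p = 1.06e-09). Its counterpart Cox6b1 was among the 90 higher members. Cox4i2, the form of subunit 4 known from lung and from hypoxia, was the one member not called: it had 6.90, 4.09 and 5.28 CPM in tendon and 5.24, 6.82 and 8.54 in bone, and the groups overlapped (-0.33 ± 0.27, edgeR adjusted p = 0.273).

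**Figure D2:**
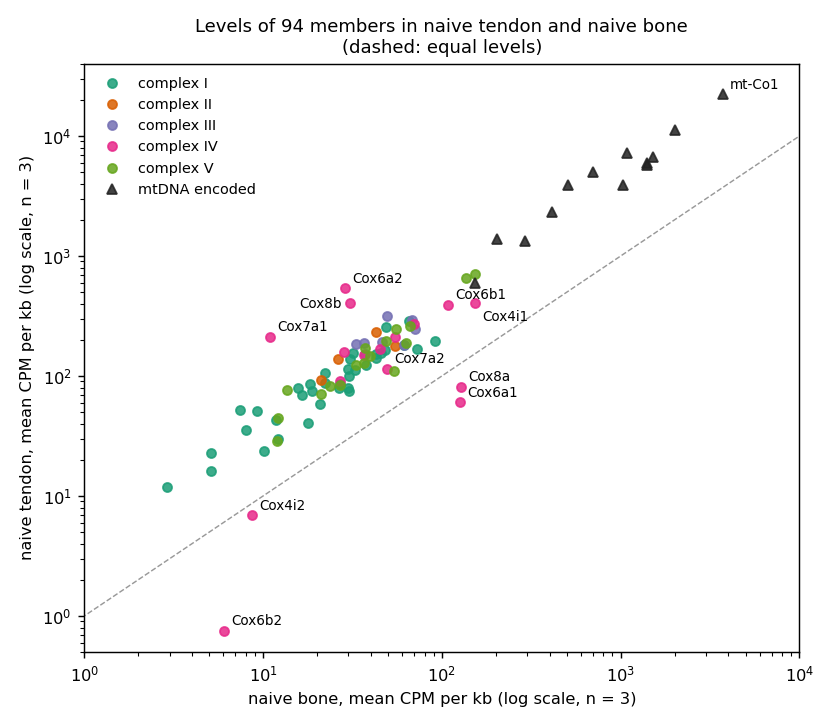
Mean level of each of the 94 tested members in naive bone (x axis) and naive tendon (y axis), in CPM per kilobase of exon on log scales (n = 3 libraries each); colours mark nuclear members by complex, triangles mark mitochondrial members and the dashed line marks equal levels. Cox6a1, Cox8a, Cox6b2 and Cox4i2 lie below the line and the other 90 members above it.

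The gene lists around the chain were also higher in tendon: all 17 citric acid cycle and pyruvate dehydrogenase genes (median log2 fold change 2.43), all 15 complex I assembly factors, 30 of 32 assembly factors of complexes II to V, 73 of 78 mitochondrial ribosomal proteins with 1 lower, 18 of 19 electron carriers and alternative subunits with 1 lower, 11 of 16 genes of mitochondrial DNA transcription and replication with 1 lower, 9 of 13 regulators of mitochondrial biogenesis with 2 lower, and both mitochondrial rRNAs. All 30 muscle fibre genes were higher as well, with a median of 4.36. Among all genes tested 33.3% were called higher in tendon and 35% lower. With a muscle fibre score as a covariate 89 members were called, 87 higher and 2 lower, and the 3 muscle forms were no longer among them: Cox6a2 then stood at 0.02, Cox7a1 at 0.75 and Cox8b at 0.57. Cox8a also passed the threshold no longer, and Cox4i2 turned to 0.28. The covariate is largely set by tissue, so the 2 cannot be told apart in this fit.

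The balance of the isoforms was followed in every library as the log2 ratio of their counts per kilobase. Cox6a2 over Cox6a1 was 3.14 ± 0.12 (SD, n = 3) in naive tendon, and 3.60, 3.41, 3.82 and 3.41 on average in the unstimulated and stimulated tendon groups at 5 days and at 12 days. In bone it averaged -3.57 ± 3.51 in naive, -0.95 and -2.52 at 5 days without and with stimulation, and -1.74 and -0.96 at 12 days. The lowest value, -7.56, came from naive bone replicate 3, the library with the least muscle RNA (0.0756% of counts). That library had only 13 counts of Cox6a2, 13 of Cox7a1 and 35 of Cox8b, so its ratios are imprecise. Cox7a1 over Cox7a2 averaged 0.88 in naive tendon and -3.06 in naive bone, and Cox8b over Cox8a 2.31 and -2.81. In naive bone the muscle form was ordered as the muscle share: Cox6a2 had 49.8, 24.0 and 0.652 CPM in the naive libraries (scaled within bone), which held 2.61, 1.48 and 0.0756% muscle fibre counts. The other pairs favoured the widespread form in both tissues: Cox4i2 over Cox4i1 was -5.91 in naive tendon and -4.17 in naive bone, and Cox6b2 over Cox6b1 -9.03 and -4.19.

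**Figure D3:**
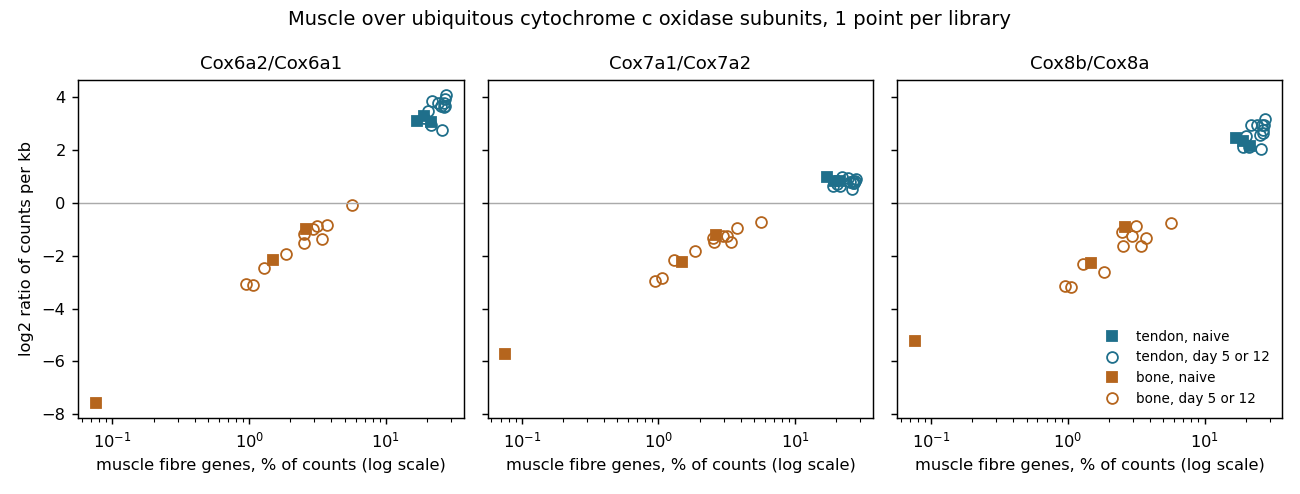
Log2 ratio of counts per kilobase of the muscle over the widespread isoform (y axis) for 3 complex IV subunits against the share of counts from 30 muscle fibre genes (x axis, %, log scale), 1 point per library; filled squares are naive, open circles are day 5 or 12. Tendon libraries lie above 0 for each pair, bone libraries below 0, and naive bone replicate 3 is lowest. Without length scaling, Cox7a1 over Cox7a2 falls below 0 in some tendon libraries.

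Promoters of nuclear respiratory genes are known for motifs of the factors NRF1, GABPA, ERR and YY1. RefSeq (GRCm38.p6) gave the 250 bases before the start for 66 of the 82 nuclear members, 71 promoters among 32851 for all genes. Both strands were searched for the letters of 5 motifs, none of which contains another. The NRF1 motif (GCGCA and GCGC with any 1 base between them) stood in 14 member promoters (19.7%) and in 3.74% of all promoters, and the GABPA motif CCGGAAG in 12 (16.9%) and 6.91%. The ERR motif AAGGTCA was found in 5 (7.04%) and in 4.08% of all, the YY1 motif AAGATGGC in 1 (1.41%) and in 1.56%, and the TATA box TATAAA in 7 (9.86%) and in 12.4%. A match is a match of letters, not a measured site, and no match says only that these letters are not in the window.

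By the counts assigned to it, Ndufb4 had the largest increase in tendon at 12 days, while Cox6a1 fell there without stimulation. With the muscle forms Cox7a1 and Cox8b these members mark the contrasts in the data, and their 4 promoters are shown. Each runs 5′ to 3′ on the gene's strand and stops where the annotated gene begins; capitals mark the NRF1 letters.
Ndufb4, GRCm38 chr16:37654454-37654618, minus strand: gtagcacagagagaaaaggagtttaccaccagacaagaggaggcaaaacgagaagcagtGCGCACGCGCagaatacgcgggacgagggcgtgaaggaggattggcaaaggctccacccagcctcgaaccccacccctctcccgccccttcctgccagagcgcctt
Cox6a1, GRCm38 chr5:115348982-115349208, minus strand: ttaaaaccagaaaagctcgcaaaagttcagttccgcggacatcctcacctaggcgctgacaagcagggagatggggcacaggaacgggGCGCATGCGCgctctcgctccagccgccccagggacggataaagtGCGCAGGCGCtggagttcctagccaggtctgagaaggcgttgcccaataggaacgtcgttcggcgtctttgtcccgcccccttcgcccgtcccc
Cox7a1, GRCm38 chr7:30183921-30184143, plus strand: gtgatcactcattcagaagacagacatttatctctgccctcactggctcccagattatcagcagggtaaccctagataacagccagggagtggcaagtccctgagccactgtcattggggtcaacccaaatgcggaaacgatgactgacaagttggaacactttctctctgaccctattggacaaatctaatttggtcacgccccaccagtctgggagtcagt
Cox8b, GRCm38 chr7:140900447-140900696, minus strand: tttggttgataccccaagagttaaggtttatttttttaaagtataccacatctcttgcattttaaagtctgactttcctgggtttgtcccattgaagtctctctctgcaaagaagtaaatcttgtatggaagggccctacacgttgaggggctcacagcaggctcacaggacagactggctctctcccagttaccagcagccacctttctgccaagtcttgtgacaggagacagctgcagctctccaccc
The whole 250-base windows held ERR and NRF1 letters for Ndufb4 and GABPA and NRF1 letters for Cox6a1. Neither Cox7a1 nor Cox8b held any of the 5 motifs. The same was true of their widespread partners Cox7a2 and Cox8a. It was also true of Ndufa6, Ndufs4 and Ndufa13, which rose in stimulated tendon at 12 days. Ndufs3, which rose there too, held GABPA letters alone. The window of Ndufa13 lay wholly inside its annotated gene, so no base upstream of that gene was searched. For Ndufs4, 86 of the 250 bases lay outside the annotated gene. The promoters shown therefore do not stand for the other members, and a link between motifs and expression was not tested.

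Stimulation was compared with no stimulation within each tissue and day. No member was called in any of the 4 comparisons (edgeR), none had an unadjusted p under 0.05, and DESeq2 called none. Few genes of any kind were called: 0.0585% of those tested in tendon at 5 days, 0.345% in tendon at 12 days, 0% in bone at 5 days and 0.0371% in bone at 12 days, while 8.28, 11.2, 8.07 and 14.6% had an unadjusted p under 0.05. The 95% interval of the stimulated against unstimulated fold change lay within 1.5-fold in either direction for 92 of 94 members in tendon at 5 days, 90 at 12 days, 64 in bone at 5 days and 88 at 12 days, with all 13 mitochondrial members among them in tendon, 11 in bone at 5 days and 12 at 12 days.

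In tendon the medians lay near 0: 0.00 for nuclear and 0.05 for mitochondrial members at 5 days, and 0.01 for both at 12 days. Ndufs4, an accessory complex I subunit known from Leigh syndrome, had the smallest p among members above 0 at both days. It had 114, 121 and 105 CPM without and 132, 134 and 120 with stimulation at 12 days, overlapping by 1 library each (0.18 ± 0.11, 95% interval -0.05 to 0.41, edgeR adjusted p = 0.581), and 0.14 ± 0.11 at 5 days (adjusted p = 0.838). Cox4i2 lay lowest of all members at both days, at -0.22 ± 0.29 and at -0.56 ± 0.30 (edgeR adjusted p = 0.52), with 3.03, 2.16 and 3.38 CPM without and 1.84, 2.79 and 1.196 with stimulation at 12 days. Of the muscle forms, Cox6a2 stood at -0.25 ± 0.19 and Cox8b at -0.19 ± 0.20 at 12 days, and of the core subunits Sdha at -0.01 ± 0.14, Atp5b, the catalytic beta subunit of ATP synthase, at 0.09 ± 0.14 and mt-Co1 at -0.01 ± 0.20. Among 13 regulators of mitochondrial biogenesis, Ppargc1a, the coactivator PGC-1alpha, rose in stimulated tendon at 12 days (1.59 ± 0.30, edgeR adjusted p = 0.0482), and none of the other 12 was called. The call of Ppargc1a lay close to the threshold of 0.05 and was not followed through the alternatives.

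In bone at 5 days, 75 of 81 nuclear members lay below 0 with stimulation, among them all of complexes II, III and V, with a nuclear median of -0.17. The mitochondrial median was 0.01 and that of all genes 0.00. The 3 stimulated libraries lay below both unstimulated ones for 21 nuclear members, and above them for 1 nuclear and 1 mitochondrial member, against 13.9 and 14.7% of all genes. Among the lowest p-values were those of Atp5a1 (-0.34 ± 0.17, edgeR adjusted p = 0.639), Atp5c1, the gamma subunit of ATP synthase (-0.40 ± 0.20), and Uqcrfs1 (-0.34 ± 0.18). Uqcrfs1 had 101 and 111 CPM without and 99.05, 69.3 and 81.8 with stimulation. The widest differences were those of the muscle forms Cox8b (-1.3 ± 0.86), Cox6a2 (-1.21 ± 1.03) and Cox7a1 (-1.09 ± 0.86). All 30 muscle fibre genes lay below 0 in the same comparison, with a median of -0.86, their summed share being 2.94 and 3.14% without and 3.40, 1.06 and 0.947% with stimulation; their part in the members' values was not tested.

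In bone at 12 days the nuclear median was 0.06 and the mitochondrial 0.04, with 63 of 94 members above 0 and none without overlap between the groups, against 16.2% of all genes. Ndufc1, a small complex I subunit, was highest by p at 0.25 ± 0.15 (edgeR adjusted p = 0.488) and Cox4i2 lowest at -0.49 ± 0.25 (adjusted p = 0.383). Muscle fibre genes lay above 0 for 29 of 30, with a median of 0.67. The change of the stimulation effect from 5 to 12 days was called for no member in either tissue (edgeR; DESeq2 called none), as for 0% of all genes. At an unadjusted p under 0.05 it held 0 members in tendon and 3 in bone, against 4.09 and 10.7% of all genes. In bone it ran from -0.90 for Cox4i2 to 1.76 for Cox6a2.

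**Figure D4:**
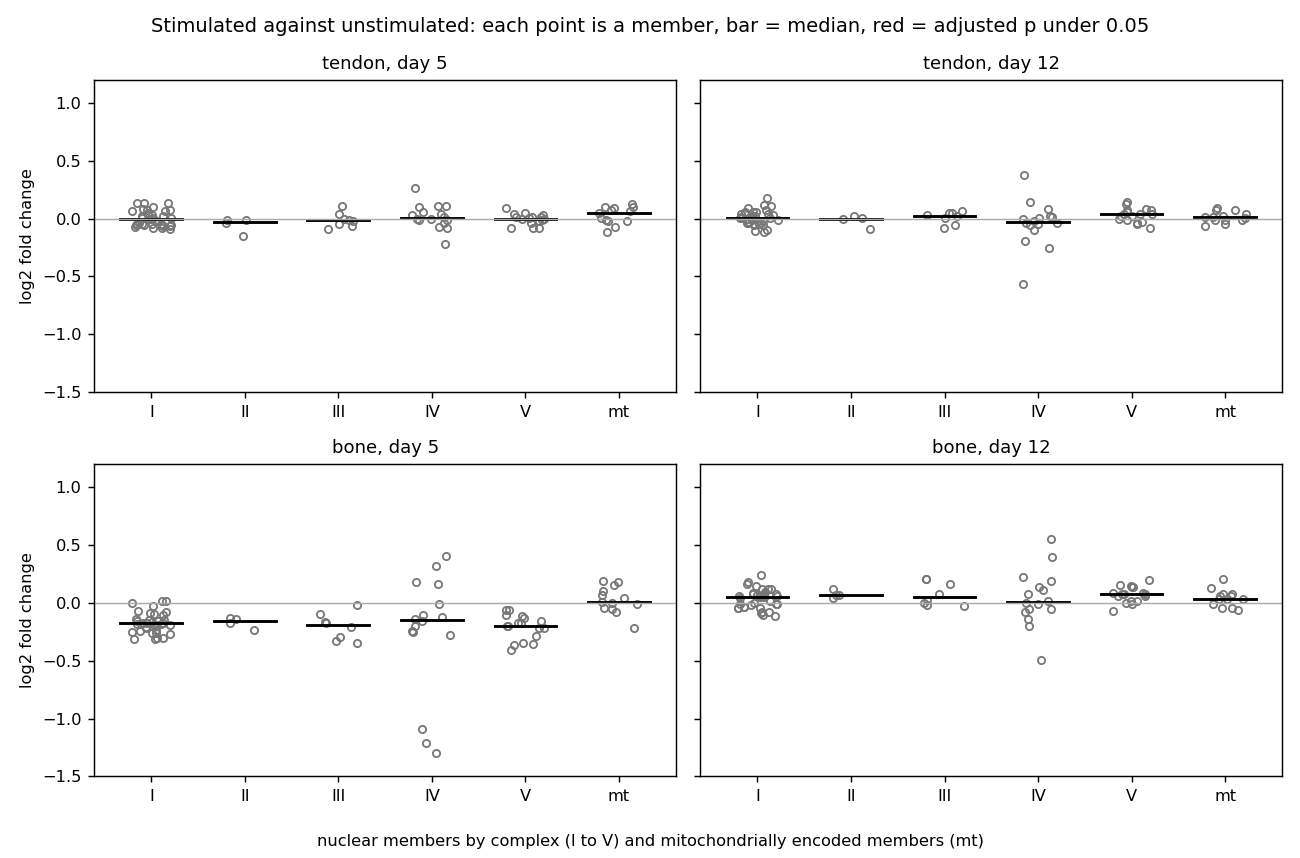
Log2 fold change of each of the 94 tested members, stimulated against unstimulated (y axis), for nuclear members by complex and for mitochondrial members (mt), in each tissue and at each day; bars are medians, and a red point would mark an adjusted p under 0.05. No point is red, the tendon points gather around 0, and the nuclear members of bone at day 5 lie mostly below it.

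Both 12-day groups of tendon were also set against naive tendon, so that these comparisons share their 3 naive libraries and are given side by side. In the unstimulated group 17 members rose and 1 fell, where 8.17% of all genes rose, 10.6% fell and 18.8% changed either way. In the stimulated group 26 rose and 1 fell, where 11.8% of all genes rose, 12.5% fell and 24.4% changed. The nuclear medians were 0.30 and 0.31 and the mitochondrial 0.27 and 0.32, beside -0.03 and -0.01 for all genes. The later libraries lay above all naive ones for 75 and 50 members (22.3 and 19.2% of all genes) and below them for 3 and 2 (25.4 and 22.5%).

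These calls depended on the scaling. TMM sets libraries by their typical gene, and with library totals instead, an alternative added after seeing the data, 1 member rose and 2 fell without stimulation, and 1 rose and 3 fell with it. The median of all genes then moved to -0.26 and -0.29, and the nuclear median stood above it by 0.33 and 0.32, as it did under TMM (0.33 and 0.32). Of the 94 members, 69 and 61 were above 0 with totals, against 90 and 89 with TMM, and each of the 18 and 27 called members kept its direction. As shares of all counts the nuclear members hardly moved: 1.77, 2.08 and 2.16% in naive tendon, 1.97 to 2.13% in the unstimulated and 1.81 to 2.17% in the stimulated group at 12 days. The differences below are therefore relative to the typical gene of the library.

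Complex I, the complex with the most nuclear members, held most of the increases, with 13 of 36 without stimulation and 17 of 36 with it (medians 0.36 and 0.35). By the counts assigned to it, Ndufb4, an accessory subunit of the membrane arm of complex I, rose most in both. Its copy Ndufb4c, described last, took 59.9 to 64.1% of the counts of the pair in tendon. Ndufb4 had 23.8, 25.1 and 23.9 CPM in naive tendon, 34.8, 38.9 and 32.8 without and 42.0, 34.9 and 30.3 with stimulation. Every later library lay above every naive one, and the log2 fold changes were 0.55 ± 0.14 (edgeR adjusted p = 0.0202) and 0.56 ± 0.14 (adjusted p = 0.0138). Ndufs3, a core subunit of the matrix arm, rose from 148, 149 and 152 CPM to 234, 219 and 198 with stimulation (0.54 ± 0.12, edgeR adjusted p = 0.00794) and to 210, 207 and 186 without it (0.43, adjusted p = 0.0264), again without overlap. It rose with stimulation under every one of the 15 alternatives run for that comparison. Without stimulation it lost the call in 5 of the 6 fits that left out a library. Ndufa6, an accessory subunit of the matrix arm, rose from 81.5, 84.1 and 84.9 CPM to 116, 120 and 105 (0.44, edgeR adjusted p = 0.0171) and to 122, 118 and 108 (0.48 ± 0.11, adjusted p = 0.00858).

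Further complex I subunits rose in one or both groups. Without stimulation these included Ndufb2 (0.48 ± 0.12, edgeR adjusted p = 0.0194), Ndufc1 (0.47 ± 0.14) and Ndufs7, the core subunit that carries the last iron-sulphur cluster before ubiquinone (0.47 ± 0.15). Ndufb2 had 50.04, 54.5 and 54.9 CPM in naive and 76.9, 75.0 and 69.9 in unstimulated tendon. With stimulation they included Ndufa13 (0.50 ± 0.14, edgeR adjusted p = 0.019) and Ndufs4 (0.48 ± 0.11, adjusted p = 0.00866), and Ndufs4 had 85.7, 93.3 and 98.1 CPM in naive and 132, 134 and 120 in stimulated tendon. Among other catalytic subunits of complex I, Ndufs1 stood at 0.21 and 0.27 and Ndufv1, which binds NADH, at 0.13 and 0.18, and neither was called.

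No member of complex II was called in either comparison, with Sdha at 0.25 in both. In complex III, 1 and 3 of 8 rose, while the core subunits Uqcrc1 (0.32 and 0.39), Uqcrc2 (0.19 and 0.24) and Uqcrfs1 (0.33 and 0.34) were not called. In complex V, 3 and 6 of 17 tested rose, among them Atp5e, the epsilon subunit, without stimulation (175, 179 and 186 CPM in naive and 259, 265 and 221 in unstimulated tendon; 0.46 ± 0.15, edgeR adjusted p = 0.0432). The alpha subunit Atp5a1 (0.22 and 0.25) and the catalytic beta subunit Atp5b (0.17 and 0.26) were not called.

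In complex IV no nuclear member rose. Cox6a1 fell without stimulation, from 31.9, 31.9 and 37.4 CPM to 25.9, 20.3 and 25.1 (-0.50 ± 0.15, edgeR adjusted p = 0.031), and stood at 24.3, 23.5 and 30.8 with it (-0.36 ± 0.14, adjusted p = 0.0818). Its groups did not overlap with naive tendon in either comparison. Cox4i2 fell with stimulation, from 5.48, 3.24 and 4.17 CPM to 1.84, 2.79 and 1.196 (-1.15 ± 0.29, edgeR adjusted p = 0.0146), and stood at -0.59 ± 0.28 without it. Cox8a, at -0.33 ± 0.12 and -0.25 ± 0.12, was not called with TMM and was called lower in both groups with library totals as the scaling. The muscle forms Cox6a2 (0.16 and -0.09), Cox7a1 (0.28 and 0.18) and Cox8b (0.28 and 0.09) were not called, and Cox6a2 turned to -0.07 without stimulation under library totals.

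None of the 13 mitochondrial genes was called, and all 13 stood above 0 in both comparisons, with 4 and 2 at an unadjusted p under 0.05 (edgeR; 35.8 and 39.2% of all genes), while DESeq2 called 1 in each comparison. The highest was mt-Nd1, a core membrane subunit of complex I, at 0.42 and 0.40 (edgeR adjusted p = 0.091 and 0.0913). It had 5216, 5174 and 4733 CPM in naive tendon, 6536, 7596 and 6092 without and 7004, 8037 and 4970 with stimulation, where replicate 3 fell inside the naive range. The same library was lowest for mt-Co1, at 21807 CPM beside 29821 and 36990, and mt-Co1 stood at 0.13 and 0.12, turning to -0.16 with stimulation under library totals.

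The counts of called members also moved with single libraries. For the unstimulated group they were 5, 3 and 0 without naive replicate 1, 2 or 3 and 0, 0 and 12 without unstimulated replicate 1, 2 or 3. For the stimulated group they were 6, 9 and 5 without naive replicate 1, 2 or 3, and 3, 10 and 39 without stimulated replicate 1, 2 or 3. Without stimulation Ndufs7 and Atp5e lost the call in each of these 6 fits. Ndufc1 and Cox6a1 lost it in 5, and Ndufb4, Ndufa6 and Ndufb2 in 3. With stimulation Ndufa6 and Ndufs4 kept the call in each fit, while Ndufa13 lost it in 3 and Ndufb4 and Cox4i2 in 2. Muscle fibre genes took 21.4, 19.1 and 16.9% of counts in naive tendon, 26.4, 27.7 and 26.6% without and 27.2, 24.2 and 25.9% with stimulation, and tendon fibroblast genes 4.15, 2.29 and 5.19%, 0.551, 0.597 and 1.31%, and 0.408, 1.3 and 1.04%. With a muscle fibre score as a covariate 6 and 59 members were called. In the main fits 8.17 and 11.8% of all genes rose and 10.6 and 12.5% fell. Of 30 muscle fibre genes 17 and 18 rose and 0 and 5 fell; 11 and 9 of 12 fast fibre genes rose, 0 and 7 of the slow and oxidative fibre genes fell, 11 and 8 of 14 tendon fibroblast genes fell and 7 and 5 of 11 osteoblast and osteocyte genes fell.

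The lists around the chain were counted in the same 2 comparisons, where 8.17 and 11.8% of all genes rose and 10.6 and 12.5% fell. Assembly factors of complex I rose in 4 and 5 of 15 cases, with Ndufaf6 at 0.67 and 0.48, and those of complexes II to V in 10 and 12 of 32, with the complex III factors Uqcc2 at 0.48 and 0.59 and Ttc19 at 0.43 and 0.46. Mitochondrial ribosomal proteins rose in 21 and 28 of 78 cases, such as Mrpl13 at 0.38 and 0.43. Of the 17 citric acid cycle and pyruvate dehydrogenase genes 1 and 4 rose, Idh3a, a subunit of isocitrate dehydrogenase, at 0.50 and 0.70. Of 19 electron carriers and alternative subunits 3 and 4 rose and 1 and 2 fell: Cycs, cytochrome c itself, rose by 0.53 in both, and Ndufa4l2, the alternative form of Ndufa4 known from hypoxia, stood at -1.24 and -1.56. Of 16 genes of mitochondrial DNA transcription and replication 2 and 1 rose, including Polrmt, the mitochondrial RNA polymerase (0.37 and 0.32). Of 13 regulators 0 and 1 rose and 2 and 3 fell, with Ppargc1a at 2.0 ± 0.30 with stimulation (edgeR adjusted p = 0.00244) and Esrrg, an estrogen-related receptor, at -0.93 and -1.21. Neither mitochondrial rRNA was called. With library totals as the scaling these counts fell to 2 and 0 for the assembly factors of complex I, 3 and 2 for those of complexes II to V, 1 and 3 for the ribosomal proteins and 0 and 1 for the citric acid cycle list, 8 and 7 regulators fell, and the list medians lay between -0.36 and 0.06; Ppargc1a then stood at 1.71, Cycs at 0.29 and 0.25 and Idh3a at 0.26 and 0.42.

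At 5 days no member of tendon was called against naive in either group, where 0.0351% of all genes were called without and 2.29% with stimulation (edgeR; DESeq2 called none). At an unadjusted p under 0.05 there were 1 and 9 members, against 10.9 and 19.6% of all genes. Members stood above 0 in 85 and 89 of 94 cases, with nuclear medians of 0.17 and 0.16 and mitochondrial medians of 0.01 and 0.04. The later libraries lay above all naive ones for 11 and 10 members (6.36 and 14.4% of all genes). The lowest member was Cox4i2 at -0.57 and -0.79. Among the regulators, Ppargc1a rose with stimulation (1.29 ± 0.30, edgeR adjusted p = 0.0443) and stood at 0.49 without it. Its call was again close to the threshold and was not followed through the alternatives.

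**Figure D5:**
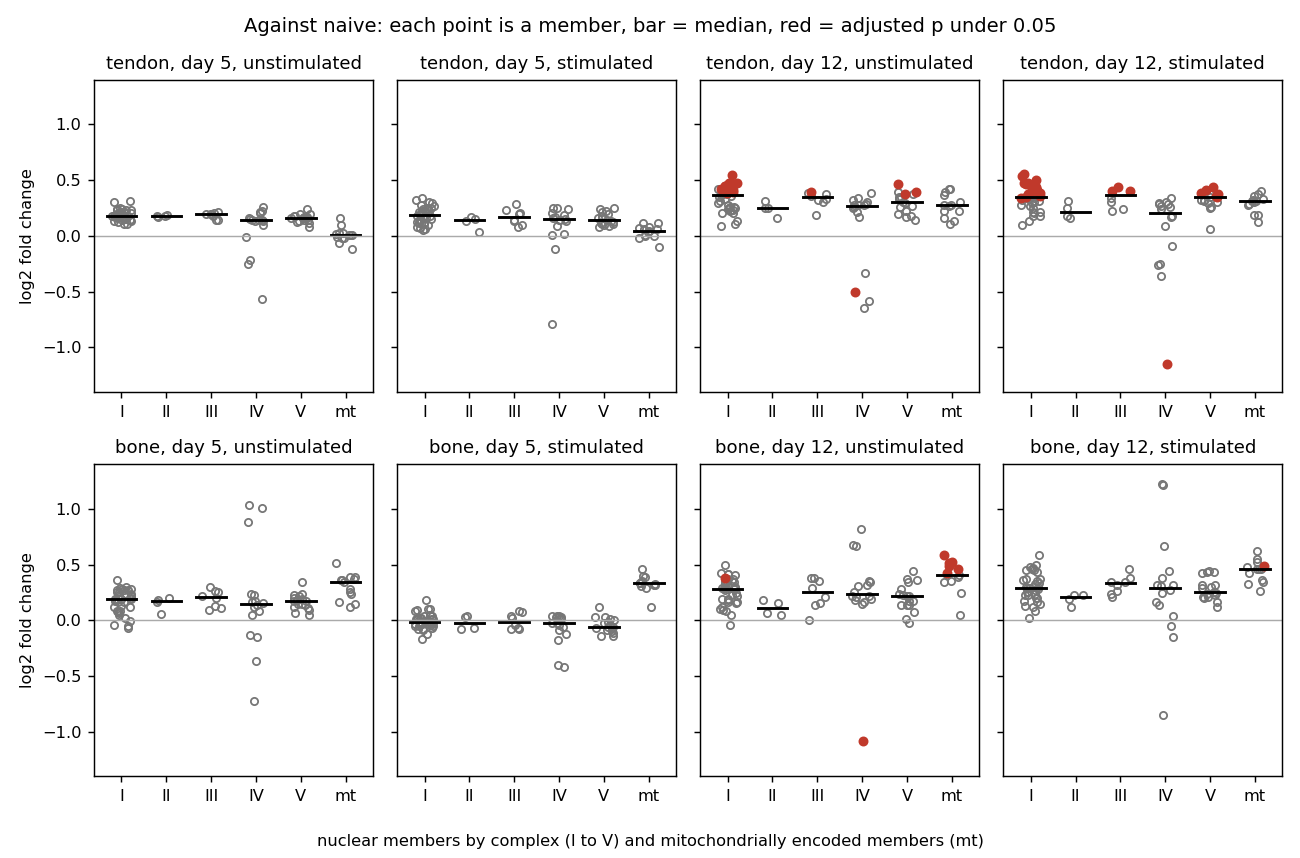
Log2 fold change of each of the 94 tested members against naive (y axis, TMM scaling) for nuclear members by complex and mitochondrial members (mt), in tendon (top) and bone (bottom); bars are medians and red marks an adjusted p under 0.05. In tendon at day 12 red points are most numerous in complex I, the largest set (13 and 17 of 36). They occur also in complexes III, IV and V, and none is mitochondrial. With library totals as the scaling 1 increase was called in each of these 2 panels. In unstimulated bone at day 12 6 of the red points are mitochondrial.

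In bone the mitochondrial genes stood further above naive than the nuclear ones. In the unstimulated group at 12 days 7 members rose and 1 fell, where 10.1% of all genes rose, 11.7% fell and 21.8% changed either way, so that the share of members called was below that of all genes. Of the 7, 6 were mitochondrial. The mitochondrial median was 0.41, the nuclear 0.23 and that of all genes 0.03, and the unstimulated libraries lay above all naive ones for 11 of 13 mitochondrial and 13 of 81 nuclear members, against 19.5% of all genes.

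The largest of these increases was that of mt-Nd2, a core membrane subunit of complex I, which had 1084, 851 and 859 CPM in naive and 1382, 1368 and 1434 in unstimulated bone (0.58 ± 0.18, edgeR adjusted p = 0.0342). mt-Nd3 rose from 68.3, 60.6 and 76.2 CPM to 105, 94.6 and 94.2 (0.52 ± 0.14, adjusted p = 0.0182), and mt-Nd1 by 0.52 ± 0.14 (edgeR adjusted p = 0.0222). mt-Co3, a core subunit of complex IV, rose from 1482, 1287 and 1457 CPM to 1964, 1818 and 2021 (0.46 ± 0.11, edgeR adjusted p = 0.0146). mt-Nd6 (0.49 ± 0.15) and mt-Atp6, the proton channel subunit of ATP synthase (0.42 ± 0.12), rose too. For none of these 6 did the groups overlap. In bone, copies on chromosome 1, described last, took 65.1 to 72.9% of the counts of the pair for mt-Nd3. They took 54.6 to 64.0% for mt-Co3 and 55.3 to 67.1% for mt-Atp6, so the levels of these members are uncertain. mt-Nd4l was lowest of the 13, at 0.05 ± 0.23.

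The nuclear call upwards was Ndufv3, an accessory subunit of complex I, from 44.7, 42.1 and 36.9 CPM to 63.8, 49.6 and 47.9 (0.38 ± 0.11, edgeR adjusted p = 0.0283). Cox6b2 fell, from 6.601, 9.60 and 9.49 CPM to 2.87, 3.84 and 5.42 (-1.08 ± 0.23, edgeR adjusted p = 0.00826), and was called under all 17 alternatives run. In the other bone groups Cox6b2 had 5.46 and 4.84 CPM in unstimulated bone at 5 days, 5.09, 6.95 and 7.33 in stimulated bone at 5 days, and 4.83, 4.06 and 5.32 in stimulated bone at 12 days. The muscle forms Cox6a2 (0.67 ± 0.94), Cox7a1 (0.82 ± 0.79) and Cox8b (0.67 ± 0.78) were not called.

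In stimulated bone at 12 days only mt-Co3 was called, at 1878, 1846 and 2207 CPM (0.49 ± 0.11, edgeR adjusted p = 0.0336), where 2.08% of all genes rose and 4.54% changed either way. Members stood at an unadjusted p under 0.05 in 40 of 94 cases, 39 of them higher, against 23.2% of all genes, and 55 lay above all naive libraries, against 11.5%. The mitochondrial median was 0.46 and the nuclear 0.29. At 5 days no bone member was called by edgeR in either group (0.435% and 0.228% of all genes), with 4 and 8 at an unadjusted p under 0.05 (14.8 and 16.3% of all genes), and DESeq2 called 0 without and 1 with stimulation. With stimulation all 8 were mitochondrial, and the medians were 0.33 for mitochondrial and -0.02 for nuclear members. Without stimulation they were 0.34 and 0.17. The 4 bone comparisons share the naive libraries, and the difference between the 2 genomes was not tested.

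Single libraries and the tissue makeup bore on these counts. For unstimulated bone at 12 days they were 8, 1 and 4 without naive replicate 1, 2 or 3, and 2, 24 and 4 without unstimulated replicate 1, 2 or 3. For stimulated bone they were 5, 0 and 0 without naive replicate 1, 2 or 3, and 5, 0 and 0 without stimulated replicate 1, 2 or 3. In unstimulated bone mt-Nd2 and mt-Atp6 lost the call in 5 of these 6 fits, mt-Nd1 and mt-Nd6 in 4, Ndufv3 in 3, mt-Nd3 in 2 and mt-Co3 in 1. Erythroid genes took 1.81, 1.92 and 5.09% of counts in naive, 0.385, 0.724 and 0.836% in unstimulated and 1.18, 0.675 and 2.06% in stimulated bone at 12 days. All 11 erythroid genes fell in unstimulated bone, 6 of 12 neutrophil and 6 of 10 osteoclast genes fell, 7 of 12 adipocyte genes rose, and 8 of 14 tendon fibroblast genes rose while 2 fell. Of 10 endothelial genes 2 rose, and none of the 30 muscle fibre genes was called there. Among all genes 10.1% rose and 11.7% fell in unstimulated bone at 12 days. With a muscle fibre score as a covariate 3 members were called in unstimulated and 0 in stimulated bone. The part of these cell types in the members' values was not tested.

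Around the chain, unstimulated bone at 12 days held increases of 5 of 31 tested assembly factors of complexes II to V, such as Surf1 (0.32) and Cmc1 (0.52), both of complex IV, and of 0 of 15 for complex I. Among all genes tested in that comparison 10.1% rose and 11.7% fell, so counts of this size are not by themselves a result about a list. Of the carriers and alternative subunits 5 rose and 1 fell, Higd1a at 0.83 and the uncoupling protein Ucp2 at -0.87. Of 13 regulators 4 fell: Nrf1 (-0.37), Pprc1 (-0.38), Gabpb1 (-0.34) and Yy1 (-0.28). Of 78 mitochondrial ribosomal proteins 2 rose, of 17 citric acid cycle and pyruvate dehydrogenase genes none was called, and of the genes of mitochondrial DNA transcription and replication 1 was called, Mterf4 at 1.25. The mitochondrial rRNA mt-Rnr1 stood at 0.55 (edgeR adjusted p = 0.0686).

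Some members share reads with near-identical copies, so their levels are uncertain. A stretch of chromosome 1 (GRCm38 chr1:24611535-24616197) carries copies of 7 mitochondrial members. The copies took 69.2 to 77.3% of the counts of the pair for mt-Co2, 65.1 to 74.1% for mt-Nd3, 55.3 to 67.6% for mt-Atp6, 54.6 to 65.4% for mt-Co3 and 54.7 to 68.7% for mt-Nd4l, but 3.84 to 9.07% for mt-Nd4 and 3.11 to 9.14% for mt-Co1. Among nuclear members the copy Ndufb4c took 59.2 to 67.0% of the pair with Ndufb4, and Gm12251 at most 10.4% of that with Ndufs3. With the copies summed in, an alternative added after seeing the data, Ndufb4 still rose in tendon at 12 days (0.49 in both groups), as did Ndufs3 (0.43 and 0.54). Ndufb4 then stood below Ndufs3 with stimulation. In the same alternative mt-Co3 still rose in unstimulated bone (0.50) but was no longer called in stimulated bone (0.47). The calls of mt-Nd3 and mt-Atp6 with the copies summed in are not given here. mt-Nd6 lies on the other strand of the mitochondrial genome from its neighbour mt-Nd5, and whether the counting used strand is not given in the sources used here.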

How the data were processed

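RNA was extracted with the PureLink kit and sequenced from poly-A libraries, per the labels' protocols. Per the submitters' processing notes, cutadapt 2.3, FastQC 0.11.8, MultiQC 1.7, STAR 2.7.8a and RSEM 1.3.3 were used with GRCm38; no source used here gives the annotation release or strand setting. The deposited unit is the RSEM expected count of each gene, in which reads of near-identical genes are divided by an estimate. All values were whole numbers as deposited (0 were not), so rounding changed none.

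Members were matched by symbol and placed on GRCm38 with GENCODE M21, which also gave exon lengths. The test was edgeR 4.0.16 under R 4.3.3: filterByExpr (minimum count 10, minimum total 15), TMM scaling, a robust quasi-likelihood fit per tissue on all its libraries (over all 29 libraries for tendon against bone) and Benjamini-Hochberg adjustment over the 17108 genes tested in tendon, 18851 in bone or 19845 in both, with a threshold of 0.05, in 15 comparisons. An SE is the log2 fold change over the square root of F. CPM values are scaled within a tissue except for tendon against bone. The near-identical bone pair was summed after seeing the data. The fits were also run on simulated counts. The changes planted there were larger than most of those called within a tissue, so recovery of smaller changes was not tested. Copies were found with blastn 2.17.0 (at least 99% identity over at least 100 bases).

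The members, lists and tests were chosen with earlier results of these data known. Named are the 5 isoform pairs, the mitochondrial members and the core subunits of each complex; in each comparison up to 5 called members in each direction by size, or the 3 of smallest p where none was called; the highest and lowest of a complex; and up to 4 genes of smallest p in each pathway list. Alternatives were DESeq2 1.42.0 and its size factors, no count filter, mitochondrial genes out of the totals, a muscle fibre score as a covariate, a replicate block, the compared libraries alone and leaving out each library, and, added after seeing the data, library totals without TMM, summed copies and the muscle covariate without naive bone replicate 3.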

Additional observations from a re-analysis of the deposited data

How the results depend on the processing

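No member was called stimulated against unstimulated, for the change of that effect, or in tendon at 5 days against naive under any alternative or with any library left out (0 to 0), and in bone at 5 days against naive leaving out a library also gave 0 to 0, with 1 member called by DESeq2 with stimulation as the exception. Tendon against bone stayed at 93 called members when a library was left out (93 to 93). Against naive at 12 days the counts moved. In tendon without stimulation (18) they were 3 with library totals, 6 with the muscle covariate, 35 with the replicate block, 35 with DESeq2, 61 with the compared libraries alone, and 0 to 12 with a library left out. In tendon with stimulation (27) they were 4 with library totals, 13 without a count filter, 59 with the muscle covariate and 3 to 39 with a library left out; with the block 34. In unstimulated bone (8) they were 14 with library totals, 3 with the muscle covariate, 13 with the near-identical pair kept apart, 14 with DESeq2, and 1 to 24 with a library left out. In stimulated bone (1) they were 2 with DESeq2's size factors, 2 with library totals, 2 without a filter, 0 with the muscle covariate, with or without naive replicate 3, 3 with the block, 7 with the pair kept apart, 14 with DESeq2, 0 with the compared libraries alone, and 0 to 5 with a library left out. The cause of these moves was not tested.

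The labels do not say that a replicate number marks an animal. Deviations of same-numbered samples from their group means correlated over 0.1 in 6 of 18 pairs in tendon (-0.357 to 0.373) and 4 of 18 in bone (-0.508 to 0.586). Differently numbered samples were not compared, so these values cannot tell whether samples were paired. The block moved the counts named above and left the other comparisons on the same side.

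Over all libraries the mean mitochondrial share in tendon went from 7.57% to 9.88% without muscle fibre genes in the total and to 9.64% with the copies added, the nuclear share from 2.07% to 2.7% without muscle genes, and the bone mitochondrial share from 2.50% to 3.38% with the copies. Without length scaling the naive log2 ratios were -6.89 in tendon and -5.15 in bone for Cox4i2 over Cox4i1, -8.39 and -3.54 for Cox6b2 over Cox6b1, 0.060 in tendon for Cox7a1 over Cox7a2 and 1.53 for Cox8b over Cox8a. The unscaled Cox7a1 ratio was below 0 in some later tendon libraries, down to -0.32 in stimulated replicate 3 at 12 days.

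Over 135 pairs of a named gene and a comparison, 1992 alternative values kept direction and call, 139 lost the call, 23 gained it and 21 turned direction. With library totals these were Cox6a2 in unstimulated (-0.073), and mt-Co1 (-0.16) and Sdha (-0.035) in stimulated tendon at 12 days against naive. With the muscle covariate they were Cox6a2 (0.050) and Cox8b (0.12) in tendon at 12 days, stimulated against unstimulated, Cox6a2 in unstimulated tendon at 12 days against naive (-0.030), Cox6a2 in bone at 12 days, stimulated against unstimulated (-0.019) and against naive (-0.072; -0.091 without naive replicate 3), mt-Nd4l in unstimulated bone at 12 days (-0.072), Cox4i2 in tendon against bone (0.28), and, without naive replicate 3, Cox4i2 (0.062) and Cox8a (0.022) in unstimulated bone at 5 days. With copies summed mt-Atp6 turned in stimulated tendon at 5 days (0.094). Leaving out a library turned Ndufa13 (range -0.0077 to 0.23) and Cox7a2 (-0.23 to 0.033) in tendon at 5 days, stimulated against unstimulated, mt-Atp6 (-0.18 to 0.047) and mt-Co1 (-0.078 to 0.30) in stimulated tendon at 5 and at 12 days against naive, and mt-Nd4l in unstimulated bone at 12 days (-0.072 to 0.24). None of these values was called in the main analysis. Depth was high for most members, so that their precision is limited by the 2 or 3 libraries per group. Exceptions with few counts are Cox4i2 and Cox6b2. In naive bone replicate 3 the muscle forms Cox6a2, Cox7a1 and Cox8b also had few, at 13, 13 and 35 counts.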
